A study of Mus musculus with 12 samples.

Results

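The 10 genes described here are the immediate-early and early growth genes Jun, Junb, Fos, Fosb, Fosl1, Egr1, Atf3, Ier3 and Dusp1, together with Myc. They were taken by name from the array annotation, where each of the 10 had 1 probe of its own among the 19938 genes with a probe of a single symbol. Colonic RNA was measured on Affymetrix MoGene 1.0 ST arrays in 4 groups of 3 C57BL/6 mice, with 1 array per mouse: TSP-1-/- mice given AOM/DSS, WT mice given AOM/DSS, TSP-1-/- mice given water and WT mice given water. TSP-1-/- mice (TSP-null in the labels) lack functional thrombospondin-1, a secreted matrix protein encoded by Thbs1, through a targeted mutation carried in every cell, and WT mice carry the intact gene. AOM (azoxymethane) is a colon carcinogen and DSS (dextran sodium sulfate) injures the colonic epithelium, and their combination gives inflamed colons with tumors. The methods describe the mice of the study as males of 7 weeks, the age at which DSS began. AOM was given once by intraperitoneal injection at 10 mg/kg, and 1.5% DSS in the drinking water for 7 days in each of 4 cycles. The colons were taken 15 weeks after the AOM dose. By the methods this was 4 weeks past the last DSS cycle, so not during DSS. The labels place the AOM dose at the start of DSS, whereas the methods place it before. The labels of the water arrays give no age.

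All values are log2 values relative to a baseline set for each probe, so a level of one gene cannot be set against that of another. On the AOM/DSS arrays the baseline was the median of the 12 arrays, and the water arrays stood on another baseline. The labels of the water arrays carry the protocol of a separate DSS study, so the effect of treatment cannot be told apart from that of the array set, and the genotypes were compared within each set. Because the values are relative, they do not show whether the defining markers of colon were present on an array. The methods speak of normal and diseased colonic tissue, whereas a figure legend of the study calls the AOM/DSS samples tumors. How much of each AOM/DSS sample was tumor is not given. In pieces of whole tissue, fewer cells of a type and less RNA per cell cannot be told apart. The Thbs1 probe read 0.81, 0.85 and 0.93 on the TSP-1-/- AOM/DSS arrays, against 0.27, -0.16 and -0.07 on the WT AOM/DSS arrays, a difference of 0.85 (limma, adjusted p = 0.0730). It was not lower in TSP-1-/- colons. The mutation lies in only part of the gene, so this probe does not check the genotype.

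Immediate-early genes are transcribed within minutes of a growth factor, cytokine or stress signal, without new protein synthesis, through factors such as SRF with its ETS partners and CREB that already sit on their promoters. The Jun and Fos proteins pair to form the transcription factor AP-1, while products such as Dusp1 switch the kinase signal off again. The RNAs themselves are short-lived. In the intestine Jun and Myc are known as targets of Wnt signaling in the crypt, and Fos, Egr1 and Atf3 are well known to be induced by handling and dissociation of tissue.

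The promoter windows of 7 of the 10 genes were in the RefSeq table (GRCm38.p6), each running from 250 bases before to 50 bases after the start of the gene. No window was listed there for Egr1, Fosl1 and Myc. The cyclic AMP response element is the site of CREB and ATF proteins, and its core TGACG was present on either strand in the windows of Fos, Fosb, Junb, Atf3 and Dusp1, that is 5 of 7, while 20.8% of the 32851 windows of the same length held it. The full palindrome TGACGTCA, which contains the core on both strands, was present in the Dusp1 window and in 1.79% of all windows. The related sequence TGACATCA was searched as a known ATF and AP-1 site of the Jun promoter. Its presence in the Jun window was thus given in advance, and 3.62% of all windows held it. The stretches that hold these letters are shown because CREB and ATF proteins are among the factors known to act on immediate-early promoters. Whether the letters bear on the values below was not tested. They are written in the direction of the gene, with the core, or TGACATCA in Jun, in capitals.
Fos, chr12:85473761-85473828, plus strand: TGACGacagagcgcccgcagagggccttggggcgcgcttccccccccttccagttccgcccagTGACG
Fosb, chr7:19310074-19310133, minus strand: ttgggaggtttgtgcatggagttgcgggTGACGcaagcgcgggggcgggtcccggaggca
Jun, chr4:95052234-95052293, minus strand: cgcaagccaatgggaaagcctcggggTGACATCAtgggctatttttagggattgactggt
Junb, chr8:84978823-84978882, minus strand: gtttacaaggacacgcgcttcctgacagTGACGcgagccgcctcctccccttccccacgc
Atf3, chr1:191183334-191183393, minus strand: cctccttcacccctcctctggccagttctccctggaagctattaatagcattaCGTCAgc
Dusp1, chr17:26508606-26508665, minus strand: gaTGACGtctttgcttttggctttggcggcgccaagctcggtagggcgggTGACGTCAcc
In Atf3 the capitals are the core read on the opposite strand, and in Dusp1 the second run in capitals is the palindrome. The CArG box of SRF, searched as CC, 6 bases of A or T, and GG, was not found in any of the 7 windows. It was found in 1.63% of all windows. The windows end 250 bases before the start, so sites farther away were not searched, nor was the promoter of Egr1. These genes can therefore not be said to lack a CArG box. Also absent from the letters of the 7 windows were the AP-1 site in its form TGACTCA and the TCF site CTTTGAT (5.2% and 3.73% of all windows). A GC box, GGGCGG, was found in 6 of the 7 (35.7% of all windows), TATAAA in Junb and Fos (13.6%) and the E-box CACGTG in Dusp1 (7.15%). These matches are descriptions of the letters and not of bound sites.

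The first question was whether the 10 genes differed between the genotypes after AOM/DSS. Egr1 and Ier3 had the largest differences, 1.58-fold and 1.75-fold higher in TSP-1-/- colons, Myc was 1.31-fold higher, and Fos, Fosb, Fosl1, Jun and Junb differed by at most 1.22-fold. None of the 10 passed the test, which required a Benjamini-Hochberg adjusted p under 0.05 over all probes and a difference of at least 2-fold. In the same limma fit 802 of 28853 probes passed (2.78% of those tested), 500 of them higher (1.73%) and 302 lower in TSP-1-/- colons. This split depended on scaling. It was 396 higher and 414 lower after each array was centred on its median. It was 78 higher and 105 lower after the deposited relative values of the 12 arrays were quantile normalized. That step gives every array the same distribution, so it narrows the wider arrays by construction. By the adjusted p alone, with no fold minimum, none of the 10 passed either (8.3% of all probes). At an unadjusted p under 0.05 there was 1 of the 10 genes, Ier3, and 32.3% of all probes. Of the 10 differences 8 were positive, as were 62.8% of all probes, and their median was 0.22, against 0.13 over all probes. The TSP-1-/- and WT values overlapped for every one of the 10 genes, whereas 20.2% of all probes were separated with TSP-1-/- higher and 10.7% with TSP-1-/- lower.

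**Figure D1:**
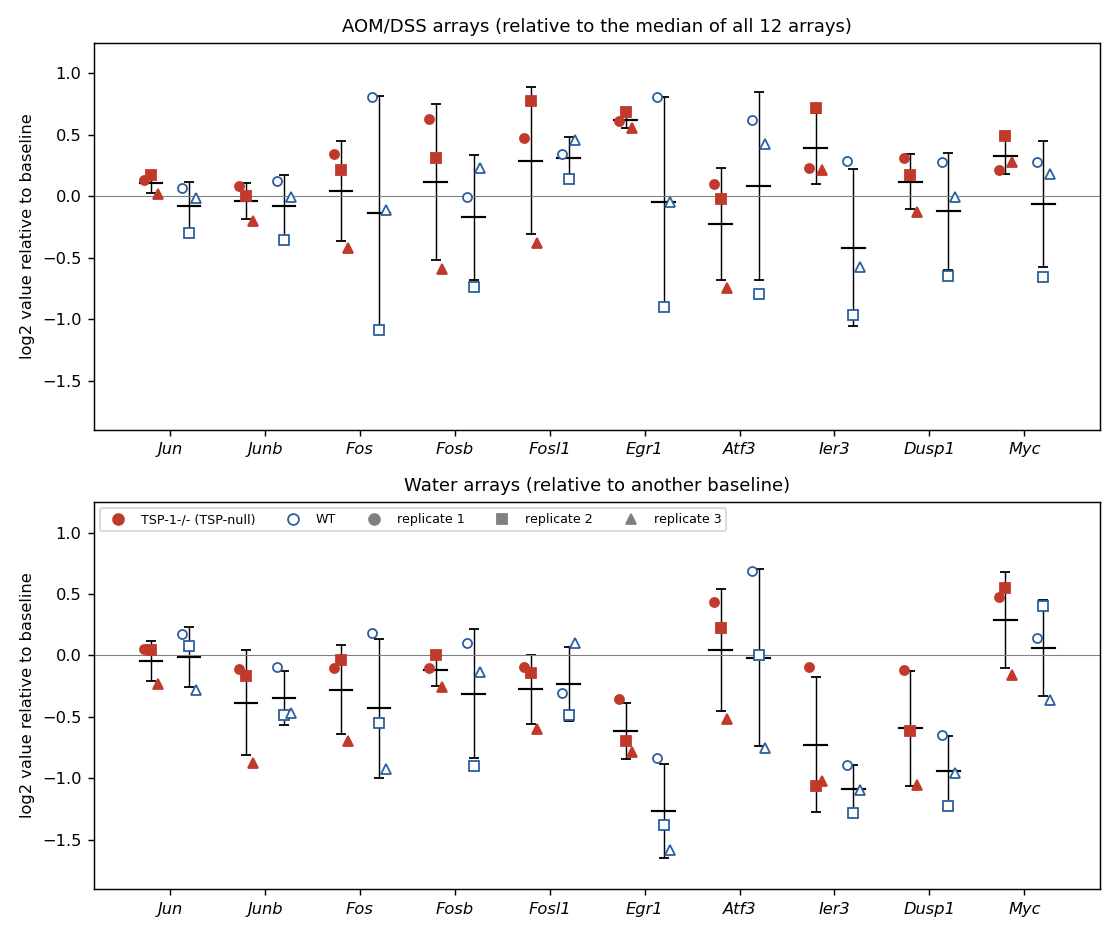
Log2 value of the 10 genes on every array, relative to the baseline of the probe, for AOM/DSS arrays (top) and water arrays (bottom). Filled red symbols are TSP-1-/- mice and open blue symbols WT mice, shapes mark the replicate number, and black lines give the mean and SD of 3 mice. On the AOM/DSS arrays Egr1 lay between 0.56 and 0.68 in TSP-1-/- mice and between -0.90 and 0.81 in WT mice.

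Among the AP-1 genes, Fos, the inducible partner of Jun, measured 0.34, 0.21 and -0.42 on the TSP-1-/- AOM/DSS arrays, against 0.80, -1.09 and -0.11 on the WT AOM/DSS arrays. The highest and the lowest of the 6 arrays were both WT arrays, and the 3 WT mice spanned a 3.72-fold range. The mean was 0.04 ± 0.41 in TSP-1-/- mice and -0.13 ± 0.95 in WT mice (SD, n = 3 each), a difference of 0.18 with a 95% interval of -0.75 to 1.10 (limma, adjusted p = 0.792). This interval does not exclude a 2.15-fold higher level in TSP-1-/- colons. Fosb, a Fos relative induced by the same signals, measured 0.63, 0.31 and -0.59 in TSP-1-/- mice, against -0.0048, -0.74 and 0.23 in WT mice. The lowest array of each genotype lay far below the other two of its group, at replicate 3 in TSP-1-/- and replicate 2 in WT. Its difference was 0.29 (SE 0.34, adjusted p = 0.573), and it was 0.0039 without WT replicate 2 and 0.64 without TSP-1-/- replicate 3.

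Fosl1, which encodes the AP-1 subunit Fra-1 that accumulates later than Fos, measured 0.48, 0.77 and -0.38 on the TSP-1-/- AOM/DSS arrays, against 0.35, 0.14 and 0.46 on the WT AOM/DSS arrays. The WT mice lay close together, and TSP-1-/- replicate 3 was the only one of the 6 arrays below the 12-array median. The difference was -0.03 (95% interval -0.61 to 0.56, limma, adjusted p = 0.955). Without TSP-1-/- AOM/DSS replicate 3 it was 0.31. Jun, the main partner of Fos proteins in AP-1, measured 0.13, 0.17 and 0.02 in TSP-1-/- mice, against 0.07, -0.30 and -0.02 in WT mice. Replicate 1 of WT lay within the range of the TSP-1-/- mice, and the other 2 WT mice lay below it. The difference was 0.19 (95% interval -0.15 to 0.53, limma, adjusted p = 0.402), and the interval does not reach 2-fold in either direction. Junb, a Jun relative that can oppose Jun, measured 0.09, 0.0036 and -0.20 in TSP-1-/- mice, against 0.13, -0.36 and -0.0036 in WT mice. The TSP-1-/- values lay inside the WT range, with a difference of 0.04 (95% interval -0.42 to 0.51, limma, adjusted p = 0.902).

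Egr1, a zinc finger transcription factor induced through SRF and ERK, measured 0.62, 0.68 and 0.56 on the TSP-1-/- AOM/DSS arrays, against 0.81, -0.90 and -0.04 on the WT AOM/DSS arrays. The TSP-1-/- mice agreed within 1.09-fold, while the WT mice spanned a 3.26-fold range, with 1 WT mouse above and 2 below all TSP-1-/- mice. The mean was 0.62 ± 0.06 in TSP-1-/- mice and -0.04 ± 0.85 in WT mice (SD, n = 3 each), a difference of 0.66 (SE 0.34, 95% interval -0.074 to 1.40, limma, adjusted p = 0.193). Whether Egr1 passed the test depended on WT replicate 1. Without it Egr1 was 1.09 higher in TSP-1-/- colons (adjusted p = 0.0288), and without WT replicate 2 it was 0.24 higher (adjusted p = 0.548). Atf3, a stress-induced factor of the ATF/CREB family, measured 0.10, -0.03 and -0.74 in TSP-1-/- mice, against 0.62, -0.80 and 0.43 in WT mice. It was the member with the lowest difference, -0.31 (SE 0.43, 95% interval -1.24 to 0.63, adjusted p = 0.640), and the WT range held all 3 TSP-1-/- values. Without WT replicate 2 the difference was -0.75, and without WT replicate 1 it was -0.04.

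Ier3, an early response gene linked to survival and to the control of ERK and NF-kB signaling, measured 0.23, 0.72 and 0.22 on the TSP-1-/- AOM/DSS arrays, against 0.29, -0.97 and -0.57 on the WT AOM/DSS arrays. All TSP-1-/- arrays were above 0, and 2 of the 3 WT arrays were far below it, but WT replicate 1 fell among the TSP-1-/- values. The mean was 0.39 ± 0.29 in TSP-1-/- mice and -0.42 ± 0.64 in WT mice (SD, n = 3 each), a difference of 0.81 (SE 0.32, 95% interval 0.11 to 1.51). Its p was 0.0274 before and 0.112 after adjustment over all probes (limma). Without WT replicate 1 the difference was 1.16 (adjusted p = 0.0299), and without WT replicate 2 it was 0.53 (adjusted p = 0.267). Dusp1, the phosphatase that inactivates p38 and JNK, measured 0.32, 0.17 and -0.12 in TSP-1-/- mice, against 0.28, -0.65 and -0.0073 in WT mice. The groups overlapped through WT replicates 1 and 3, and the difference was 0.24 (95% interval -0.35 to 0.84, adjusted p = 0.549).

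Myc, which drives growth and ribosome production and is a target of Wnt signaling in colonic crypts, measured 0.22, 0.49 and 0.28 on the TSP-1-/- AOM/DSS arrays, against 0.28, -0.65 and 0.18 on the WT AOM/DSS arrays. A single WT mouse, replicate 2, stood apart, and WT replicate 1 lay between the TSP-1-/- values. The mean was 0.33 ± 0.14 in TSP-1-/- mice and -0.07 ± 0.51 in WT mice (SD, n = 3 each), a difference of 0.39 (95% interval -0.20 to 0.99, limma, adjusted p = 0.328). Without WT replicate 2 it was 0.10 (adjusted p = 0.794). Of 24 measured Myc target genes, such as those of ribosome production, none passed the test, 20 differences were positive, and their median was 0.21. Over all probes 2.78% passed and 62.8% of differences were positive, with a median of 0.13. On the water arrays 18 of the 24 differences were positive, with a median of 0.07. Of 12 genes of the Myc network (Max, its partners and relatives) none passed, with a median of 0.04.

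**Figure D2:**
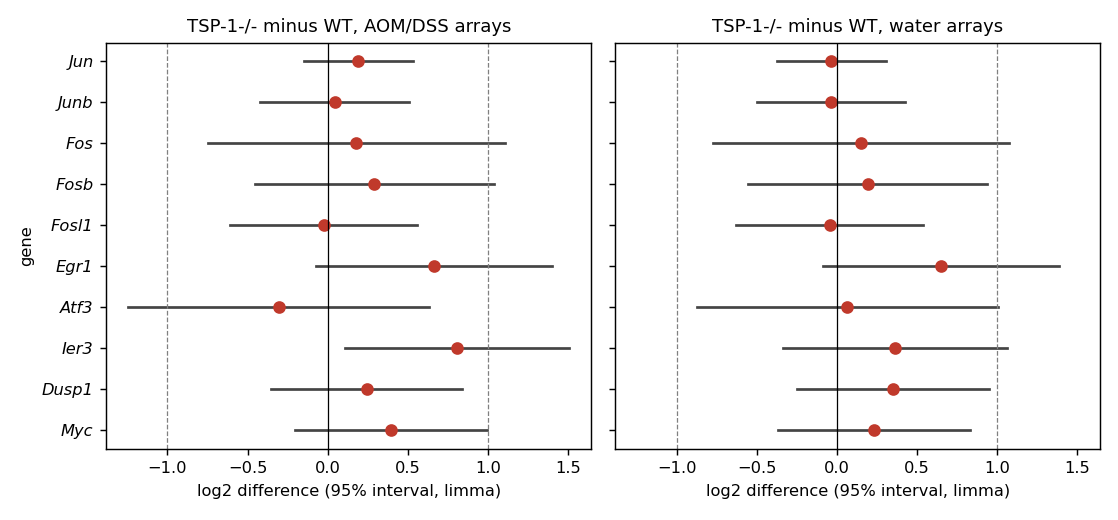
Difference of TSP-1-/- minus WT for the 10 genes (points, log2 units) with its 95% interval from limma (bars), within the AOM/DSS arrays (left) and within the water arrays (right). Dashed lines mark a 2-fold difference in either direction. Only the AOM/DSS interval of Ier3, 0.11 to 1.51, lies wholly on one side of 0.

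The second question was whether the genotypes differed without AOM/DSS. On the water arrays Egr1 had the largest difference of the 10, 1.57-fold higher in TSP-1-/- colons, followed by Ier3 and Dusp1. None of the 10 passed the test, and neither did any of the 28815 probes tested (0.0%). At an unadjusted p under 0.05 there was none of the 10 and 0.999% of all probes (limma). The adjusted p was 1.00 for each of the 10.

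Egr1 measured -0.36, -0.70 and -0.79 on the TSP-1-/- water arrays, against -0.83, -1.38 and -1.58 on the WT water arrays. It was the only one of the 10 genes whose groups did not overlap, while 2.29% of all probes were separated in this direction and 2.88% in the other, and the gap between the lowest TSP-1-/- mouse and the highest WT mouse was small beside the range within either group. The mean was -0.61 ± 0.23 in TSP-1-/- mice and -1.27 ± 0.39 in WT mice (SD, n = 3 each), a difference of 0.65 (95% interval -0.09 to 1.39, unadjusted p = 0.0785, limma). Ier3 measured -0.09, -1.06 and -1.02 in TSP-1-/- mice, against -0.89, -1.28 and -1.09 in WT mice. Replicate 1 of TSP-1-/- stood well above the other 5, and the difference was 0.36 (95% interval -0.34 to 1.06), or 0.047 without that array. Dusp1 measured -0.11, -0.61 and -1.05 in TSP-1-/- mice, against -0.65, -1.22 and -0.96 in WT mice, and again replicate 1 of TSP-1-/- was the highest array, with a difference of 0.35 (95% interval -0.25 to 0.95), or 0.11 without that array.

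Fos measured -0.11, -0.04 and -0.70 on the TSP-1-/- water arrays, against 0.19, -0.55 and -0.93 on the WT water arrays. As after AOM/DSS, the WT values enclosed those of the TSP-1-/- mice. Atf3 measured 0.43, 0.22 and -0.52 in TSP-1-/- mice, against 0.69, 0.0029 and -0.75 in WT mice. Its order of arrays was that of Fos apart from the first 2 TSP-1-/- mice. Myc measured 0.48, 0.55 and -0.16 in TSP-1-/- mice, against 0.14, 0.40 and -0.36 in WT mice, with a difference of 0.23 (95% interval -0.37 to 0.83). Replicate 3 of each genotype gave its lowest Myc value, and the difference was 0.019 without WT replicate 3 and 0.45 without TSP-1-/- replicate 3. The other members differed little. Jun measured 0.05, 0.04 and -0.23 in TSP-1-/- mice, against 0.18, 0.07 and -0.28 in WT mice. Junb measured -0.11, -0.17 and -0.88 in TSP-1-/- mice, against -0.09, -0.48 and -0.47 in WT mice. In both genes replicate 3 was the lowest of the TSP-1-/- mice by a wide margin. Fosb measured -0.11, 0.01 and -0.26 in TSP-1-/- mice, against 0.10, -0.90 and -0.13 in WT mice. Fosl1 measured -0.09, -0.14 and -0.60 in TSP-1-/- mice, against -0.31, -0.48 and 0.10 in WT mice. The mean differences of Jun, Junb, Fosl1, Atf3, Fos and Fosb lay between -0.04 and 0.19, each within the spread between mice.

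The genotype difference after AOM/DSS minus that on water, in which a shift of the baseline cancels, was not past the threshold for any of the 10 genes (2 of 28815 probes passed, 0.00694%), nor was an unadjusted p under 0.05 (15.4% of all probes). These values were 0.44 for Ier3 (95% interval -0.55 to 1.43), 0.23 for Jun (-0.25 to 0.70) and 0.16 for Myc (-0.68 to 1.01), and -0.37 for Atf3 (-1.70 to 0.96). For Egr1 the value was 0.01 (-1.03 to 1.06). The genotype difference of Egr1 was thus nearly equal in size on both array sets, 0.66 and 0.65, with intervals that reach 0 in each in this fit. With only the 2 groups of each comparison fitted, its 95% interval on the water arrays was 0.17 to 1.13 (limma, unadjusted p = 0.0148). On the AOM/DSS arrays it was -0.20 to 1.53 (limma, unadjusted p = 0.116). Egr1 did not pass the test in either. For the difference between the array sets, the adjusted p of the 10 genes lay between 0.604 and 0.992 (limma).

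Most of the 10 genes varied widely between mice of the same group. Fos, with a pooled within-group SD of 0.730 on the AOM/DSS arrays, varied more than 96.5% of the probes with a single symbol, and its SD of 0.475 on the water arrays exceeded that of 96.4%. Atf3 was close to it, with an SD of 0.631 after AOM/DSS and of 0.619, above that of 98.2% of probes, on water. Egr1 followed at 0.605 (94.4%) and 0.317 (88.6%). Fosb and Ier3 varied nearly as much, at 0.575 (93.7%) and 0.497 (90.8%) on the AOM/DSS arrays. Jun and Junb were the steadiest on the AOM/DSS arrays, at 0.149 (15.8%) and 0.205 (35.0%), and Dusp1, Myc and Fosl1 lay between, at 0.372 to 0.438. On the AOM/DSS arrays the median SD over the 10 genes was 0.467, against 0.246 over all probes with a single symbol. On the water arrays it was 0.386, against 0.169.

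Among the WT AOM/DSS mice, replicate 2 was the lowest of its group for 10 of the 10 genes, as it was for 27.6% of all probes, and replicate 1 was the highest for 8 of them (37.2% of all probes). The median of the 10 genes was 0.28 on replicate 1, -0.70 on replicate 2 and -0.01 on replicate 3. Among the TSP-1-/- AOM/DSS mice, replicate 3 was the lowest for 9 genes (38.8% of all probes). Egr1 was only slightly lower there, and Myc was the exception, with its lowest value in replicate 1. The medians of the 10 genes were 0.27, 0.26 and -0.16 on the TSP-1-/- AOM/DSS arrays. Among the water mice, TSP-1-/- replicate 3 was the lowest for 9 of the 10 genes (37.2% of all probes) and WT replicate 1 the highest for 8 (26.9%), with medians of -0.10, -0.09 and -0.65 on the TSP-1-/- water arrays and of 0.01, -0.52 and -0.61 on the WT water arrays. How long tissues waited before RNA was extracted is not given in the sources used here, and the part of tissue handling in this spread was not tested.

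**Figure D3:**
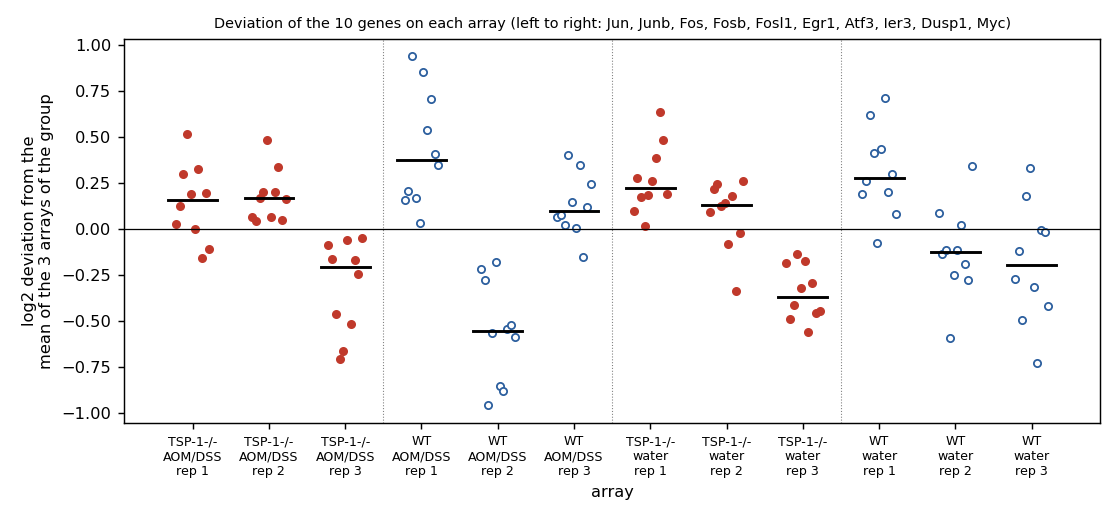
Deviation of the 10 genes (points, log2 units) on each of the 12 arrays from the mean of the 3 arrays of the group, with the genes from left to right within an array in the order of the title and black bars at the median. Filled red points are TSP-1-/- arrays and open blue points WT arrays. The median deviation was 0.38 on WT AOM/DSS replicate 1 and -0.56 on WT AOM/DSS replicate 2, with all 10 points of replicate 2 below 0.

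Over the 12 arrays the deviations from the group means correlated positively for 45 of 45 pairs of the genes, with a median Pearson r of 0.70, from 0.17 for Egr1 and Fosl1 to 0.96 for Atf3 and Jun. On the 6 AOM/DSS arrays alone 45 of 45 were positive (median 0.85), and on the 6 water arrays 40 were positive and 5 negative (median 0.58). Fosl1 was in 4 of the negative water pairs, and the lowest was that of Fosb and Myc (-0.25). These are descriptions over the same 12 arrays, so the points share RNA samples and normalization. Deviations from a mean of 3 arrays are also not independent of each other, so there are fewer free values than arrays. Pairs of other probes were not counted in this way, so a shift shared by many probes cannot be told apart. Of the 9 other genes, Atf3 (r = 0.93, rank 7 of 21779 probes), Egr1 (0.92, rank 11) and Jun (0.88, rank 67) were most like Fos. Dusp1 (0.83) and Junb (0.81) followed, and Fosl1 was the least like it (0.37, rank 4616). The likeness of Atf3 to Fos was similar on the AOM/DSS arrays (0.94, n = 6), on the water arrays (0.97, n = 6) and without the 2 arrays farthest from the median, WT AOM/DSS replicates 1 and 2 (0.95, n = 10). That of Ier3 was not. It was 0.87 on the AOM/DSS arrays, 0.38 on the water arrays and 0.37 without those 2 arrays. For Myc the same 3 values were 0.83, 0.68 and 0.56.

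Outside the 10 genes, the probe most like Fos was that of Trib1 (r = 0.96), a pseudokinase gene that is itself induced early after stimulation. Next came Ywhab, Sik3, Sult3a2, Cldnd1, Srsf4, Ubald1, Tmbim1, Usp15 and Spry2, with r between 0.92 and 0.95. Spry2 encodes an inhibitor of ERK signaling. The probes most like Myc were those of C330007P06Rik (r = 0.98), Dhrs9, Capg, Mrpl17, Trim40, Arpc1b, Mettl9, Rbfa, Spc24 and Rpp14, down to 0.93. Of the 10 genes, Jun came closest to Myc (0.90, rank 30).

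Other features of the tissue pieces also differed on arrays that were high or low for the 10 genes, though not always in the same direction. Their part in the spread was not tested. On TSP-1-/- AOM/DSS replicate 3, where 9 genes were lowest, the median of 8 measured pancreatic enzyme genes was 6.01, against 0.01 and 0.02 on replicates 1 and 2, and that of 10 markers of differentiated colonocytes was -1.45, against -0.14 on each of the other two. On WT AOM/DSS replicate 1, where 8 genes were highest, the median of 6 Paneth cell markers was 2.72, against -0.57 and -0.38 on replicates 2 and 3. On the same array 8 genes of position along the colon had a median of -1.34, against 0.17 and 0.08, adipocyte markers -1.03, against 1.30 and 1.40, and neutrophil and monocyte markers 0.71, against -0.69 and -0.06. WT AOM/DSS replicate 2, the lowest array for all 10 genes, did not stand apart from replicate 3 in the Paneth, position or adipocyte markers. Its neutrophil and monocyte markers were the lowest of the WT AOM/DSS arrays. Over replicates 1, 2 and 3 these markers stood at 0.71, -0.69 and -0.06. The medians of the 10 genes had the same order there, at 0.28, -0.70 and -0.01. On TSP-1-/- water replicate 1, the highest of its group for 7 genes, the neutrophil and monocyte markers stood at 0.41, against -3.06 and -2.84. The medians of the 10 genes on TSP-1-/- water replicates 1, 2 and 3 were -0.10, -0.09 and -0.65. On the TSP-1-/- AOM/DSS arrays the neutrophil and monocyte markers stood at 2.36, 3.80 and 3.75. The medians of the 10 genes there were 0.27, 0.26 and -0.16. Heat shock genes, which respond to stress, had medians of 0.25, 0.38 and -0.01 on the TSP-1-/- AOM/DSS arrays and 0.26, -0.08 and -0.07 on the WT AOM/DSS arrays.

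Between the genotypes after AOM/DSS, 10 of 10 neutrophil and monocyte markers had positive differences, with a median of 3.19 and 4 genes past the test (Cxcr2, Il1b, Lcn2 and Csf3r). Of all probes 62.8% had positive differences and 2.78% passed, and these shares are the background for each marker list. Paneth cell markers had a median of 3.24 (3 of 6 past the test, Defa24, Mmp7 and Lyz1), fibroblast markers 0.83 (1 of 8, Col1a1), endothelial markers 0.62 and pancreatic enzyme genes 2.23 (0 of 8 each). Lower medians were those of adipocyte markers, -2.04 (2 of 7, Cidec and Retn), position genes, -1.45 (1 of 8, Osr2), differentiated colonocyte markers, -0.66 (1 of 10, Car1), smooth muscle markers, -0.41 (0 of 10), and goblet cell markers, -0.22 (0 of 7). The pancreatic enzyme median rested on TSP-1-/- replicate 3, at 6.01, against 0.01 and 0.02 on TSP-1-/- replicates 1 and 2. On the WT arrays it was -0.11, -0.21 and -0.22. Of the 8 position genes 3 had positive differences, so their median does not describe every gene of that list. The part of this tissue composition in the values of Egr1, Ier3 and Myc was not tested.

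The remaining genes of the pathway were followed in lists of known members, on the AOM/DSS arrays. Of 32 other immediate-early genes, 2 passed the test, both higher in TSP-1-/- colons, and 26 of the 32 differences were positive, with a median of 0.21. Over all probes 2.78% passed, 1.73% as higher, and 62.8% of differences were positive. Of 13 feedback genes of the ERK pathway 1 passed (median 0.35), as did 1 of 15 upstream kinases and factors (median 0.24). Of the 12 other AP-1 genes, which include Jund and Fosl2, none passed, and their median was 0.08. In the integrated stress response, the pathway of Atf4 that also induces Atf3, 1 of 12 passed, the cystine transporter gene Slc7a11 (difference 3.04, adjusted p = 0.0319), while the median was -0.09. None of 10 heat shock genes passed (median 0.11). The median over all genes was 0.13, and on the water arrays no gene of any of these lists passed.

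Egr2, the closest relative of Egr1 among the immediate-early genes that passed, measured 1.80, 1.69 and 3.19 on the TSP-1-/- AOM/DSS arrays, against 0.90, -0.0038 and -0.26 on the WT AOM/DSS arrays. All TSP-1-/- mice were above all WT mice, and Egr2 was highest on TSP-1-/- replicate 3, the array that was the lowest of its group for 9 of the 10 genes. The difference was 2.01 (SE 0.44), which is 4.03-fold (limma, adjusted p = 0.0276). On the water arrays it was 0.52, and the difference between the array sets did not pass the test (1.49, adjusted p = 0.298). Ccn1, a secreted matrix protein gene and early target of growth factors, measured 1.51, 1.36 and 1.04 in TSP-1-/- mice, against 0.81, -0.83 and 0.03 in WT mice. The WT mice showed the order of Fos and Egr1, with replicate 1 high and replicate 2 low, and the TSP-1-/- mice lay above all of them. The difference was 1.30 (SE 0.33, limma, adjusted p = 0.0388).

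Dusp4, a nuclear phosphatase of ERK and a relative of Dusp1, measured 1.46, 1.29 and 1.61 on the TSP-1-/- AOM/DSS arrays, against 0.82, -0.51 and -0.04 on the WT AOM/DSS arrays. The groups were separated, with a difference of 1.36 (SE 0.27, limma, adjusted p = 0.0207). Elk3, an ETS partner of SRF, measured 1.12, 1.10 and 1.82 in TSP-1-/- mice, against 0.21, -0.08 and -0.71 in WT mice, and differed by 1.54 (SE 0.26, limma, adjusted p = 0.0162). In each of these 4 genes the WT mouse nearest to the TSP-1-/- mice was replicate 1, the mouse that lay among or above the TSP-1-/- values for Egr1 and Ier3. These 4 calls, and that of Slc7a11, were not stable. Without WT replicate 3 the adjusted p was 0.108 for Egr2, 0.121 for Ccn1, 0.0821 for Dusp4, 0.0597 for Elk3 and 0.121 for Slc7a11. Without TSP-1-/- replicate 3 it was 0.0764 for Egr2, 0.0776 for Ccn1, 0.0644 for Dusp4 and 0.0893 for Slc7a11, and with quantile normalization of the arrays repeated none of the 5 passed. The differences themselves moved less without WT replicate 3, to 1.77 for Egr2, 1.31 for Ccn1, 1.30 for Dusp4, 1.28 for Elk3 and 2.42 for Slc7a11. After the quantile normalization they were 0.94 for Egr2, 0.90 for Ccn1, 0.80 for Dusp4 and 1.70 for Slc7a11. Elk3, at 0.99 with an adjusted p of 0.0393 (limma), missed only the fold minimum.

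**Figure D4:**
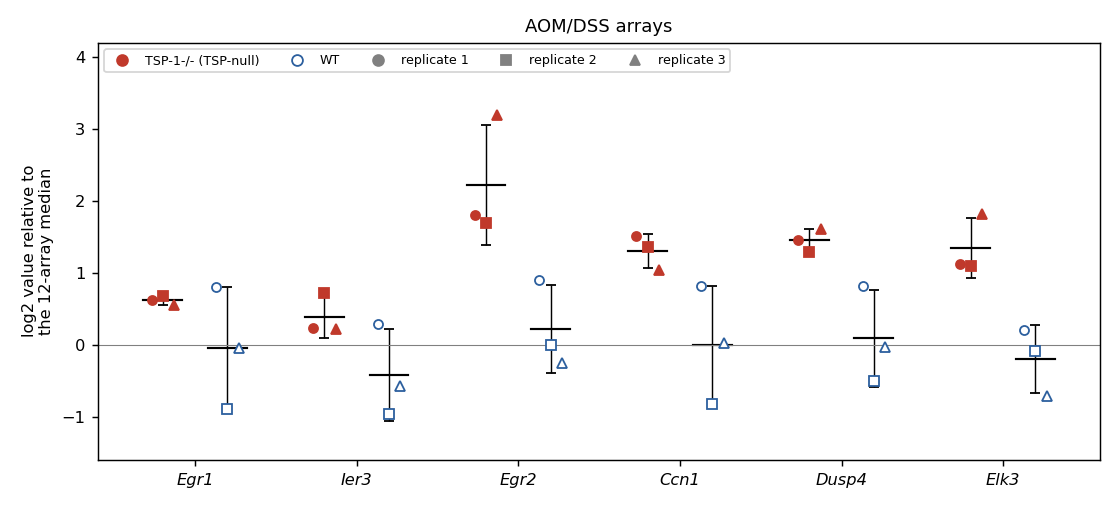
Log2 values on the AOM/DSS arrays, relative to the 12-array median, of Egr1 and Ier3 and of the 4 genes of the related lists Egr2, Ccn1, Dusp4 and Elk3 that passed the test. Filled red symbols are TSP-1-/- mice, open blue symbols WT mice, shapes mark the replicate number, and black lines give the mean and SD of 3 mice. WT replicate 1 lies at 0.81 for Egr1 and 0.29 for Ier3, inside or above the TSP-1-/- values, and below all TSP-1-/- values for the other genes.

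The AOM/DSS arrays could be set against the water arrays only by counting arrays above the 12-array median, because the baselines differed. Fosl1 and Myc were above it on 5 of 6 AOM/DSS arrays, and the exact two-sided Fisher test gave p = 0.0801 for each, among 10 genes so tested. Of all probes, 13.9% were above it on 5 or more of the 6 AOM/DSS arrays. For Fosl1 the exception was TSP-1-/- replicate 3, and for Myc it was WT replicate 2. Jun, Egr1 and Ier3 were above on 4 of 6 (exact p = 0.567 for each, 23.7% of all probes), and Fos, Fosb, Junb, Atf3 and Dusp1 on 3 of 6 (27.0% of all probes), the count with no preference for either set.

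When 1 offset per probe was added to the water values so that the 12-array median was 0, AOM/DSS minus water was 0.57 in TSP-1-/- mice and 0.55 in WT mice for Fosl1. For Myc it was 0.55 in TSP-1-/- mice and 0.39 in WT mice, and for Egr1 0.49 in TSP-1-/- mice and 0.48 in WT mice. These are estimates with no test. For Fos they were 0.11 in TSP-1-/- mice and 0.08 in WT mice, and for Jun 0.22 in TSP-1-/- mice and -0.01 in WT mice. Ier3 was 0.16 in TSP-1-/- mice and -0.29 in WT mice, and Atf3 was -0.07 in TSP-1-/- mice and 0.30 in WT mice. Fosb and Dusp1 lay between 0.03 and 0.16 in both genotypes. For Junb the middle values of the 12 arrays left the offset open over a range of 0.29, so its estimates of 0.03 in TSP-1-/- mice and -0.05 in WT mice are not fixed within that range.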

How the data were processed

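The deposited log2 values were made by the authors from Affymetrix probe signals with PLIER16, quantile normalization and a baseline per probe, and were used without further transformation. Relative values hold no absolute signal, so the filter of the methods on the lowest signals could not be applied. The AOM/DSS values of 377 of the 377 genes read match published group means within 0.0001, and the water values of 0 of 377 do, so the water arrays have another baseline. Of 28853 probes, 21789 have 1 gene symbol, 1621 several and 5443 none, and 28815 have values on all 12 arrays.

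Genotypes were compared with limma 3.58.1 (R 4.3.3), with 1 mean per group, all 12 arrays sharing 1 estimate of the spread, and Benjamini-Hochberg adjustment over all probes. The analysis of variance of the methods used the same adjusted p and fold minimum. The labels call the 3 arrays of a group biological replicates. The method was tested on simulated data. The number of arrays limits the precision.

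The genes and lists were chosen with earlier results of these data known. Named are all 10 genes, Thbs1, up to 4 called genes of each list by size of difference, and the 10 probes most like Fos and Myc. The offset between array sets was added after seeing the data. Promoter motifs were searched on both strands with Python 3.11.15. Alternatives were other scalings, a filter on variable probes, array weights, the replicate number as a block, only the groups compared, no fold minimum and each array left out.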

Additional observations from a re-analysis of the deposited data

How the results depend on the processing

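None of the 10 genes passed the test on the AOM/DSS arrays, on the water arrays or in the difference between them under any setting tried, except that leaving out WT AOM/DSS replicate 1 called Egr1 and Ier3 (0 to 2 genes called over the arrays left out in turn). Atf3 was removed by the filter on variable probes. The count over all probes on the AOM/DSS arrays was less stable. It was 802, but 183 when all 12 arrays were quantile normalized once more, 381 with array weights, 6 with only the 2 groups compared, 170 without TSP-1-/- AOM/DSS replicate 3, 1402 without TSP-1-/- AOM/DSS replicate 2, and, of the WT AOM/DSS mice, 1341 without replicate 1, 401 without replicate 2 and 104 without replicate 3. Quantile normalization again moved the median difference of all probes to 0.02, against 0.13. In the difference between the array sets, 2 probes were called, against 82 with array weights and 289 without WT AOM/DSS replicate 1.

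The replicate numbers were not taken as a pairing, since nothing in the labels ties them to a litter or day. Deviations of arrays of the same number correlated at 0.03, -0.04 and -0.02 on the AOM/DSS arrays and at 0.09, 0.28 and 0.40 on the water arrays. With the replicate number as a block 0 of the 10 genes were called, with 803 probes on the AOM/DSS arrays, 0 on the water arrays and 1 in the difference between them. For Egr1 the block gave an unadjusted p of 0.0356 on the AOM/DSS arrays (adjusted p = 0.133) and of 0.0385 on the water arrays (adjusted p = 1.00), with 95% intervals of 0.05 to 1.27 and 0.04 to 1.26 from limma.

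Differences near 0 changed sign with the setting, and the cause was not tested. On the AOM/DSS arrays Junb was -0.033 after centring, and with array weights Fosl1 was 0.17 and Atf3 0.0054. On the water arrays Junb was 0.0037 and Atf3 -0.057 when the deposited relative values of all 12 arrays were quantile normalized. Array weights gave 0.034 for Junb and 0.072 for Fosl1 there. With each array left out in turn, the AOM/DSS difference lay between -0.10 and 0.14 for Junb, -0.30 and 0.65 for Fos, 0.0039 and 0.64 for Fosb, -0.75 and -0.04 for Atf3, -0.27 and 0.31 for Fosl1 and -0.018 and 0.45 for Dusp1. The water difference lay between -0.17 and 0.060 for Jun, -0.17 and 0.21 for Junb, -0.10 and 0.46 for Fos, -0.10 and 0.40 for Fosb, -0.17 and 0.12 for Fosl1, -0.30 and 0.42 for Atf3, 0.047 and 0.53 for Ier3, 0.11 and 0.58 for Dusp1 and 0.019 and 0.45 for Myc. Fosl1 and Myc were above the 12-array median on 4 to 5 AOM/DSS arrays. Where the array left out was the one below the median, it was chosen by its value, so no test is read from the 5 that remain.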
